A study of Homo sapiens with 18 samples.

Results

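The 10 genes described here make, sense and clear prostaglandin E2: PLA2G4A, PTGS1, PTGS2, PTGES, PTGES2, PTGES3, PTGER2, PTGER4, HPGD and SLCO2A1. They were taken by symbol from the 27968 genes in the deposited tables, and all 10 were found. The set was chosen by its known route and selected on measured values too: the 14.0-fold higher PTGS2 level in MDA-MB-231 cells given a BLM siRNA was known when the genes were picked. Values of that comparison are therefore given as a description, without p-values, and where genes called in it are counted nothing is read from the count.

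The series asked which genes depend on BLM, a RecQ helicase that resolves recombination intermediates, in cancer cells. A549 is a lung adenocarcinoma line and MDA-MB-231 is a breast cancer line that lacks oestrogen receptor. Both lines grew in DMEM with 10% FBS and were transfected, and no untransfected group is among them. The 6 groups of 3 libraries were A549 with the control siRNA, with siRNA1, with siRNA2 and with siRNA3, and MDA-MB-231 with the control siRNA and with siRNA1. Each line is a single tumour line, and the lowered BLM was a transient knockdown rather than a deletion. The labels mention flat and 3D culture but assign neither to a library, and they do not say whether the libraries of a group are separate cultures. The p-values below therefore rest on differences among libraries that could be technical repeats.

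Cytosolic phospholipase A2, the product of PLA2G4A, frees arachidonic acid from membranes, and the cyclooxygenases PTGS1 and PTGS2 turn it into prostaglandin H2. PTGES, PTGES2 and PTGES3 can convert prostaglandin H2 to prostaglandin E2, which acts on other cells through receptors such as PTGER2 and PTGER4 that raise cAMP. SLCO2A1 takes prostaglandins up and HPGD oxidises them to inactive products, and in carcinoma cells PTGS2 is the inducible step of the route.

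The promoters of PTGS2, PLA2G4A and PTGES are shown because PTGS2 and PLA2G4A lie on chromosome 1 with 0 protein-coding genes between them in RefSeq and both fell with siRNA3, while PTGES is the inducible synthase, whose changes in A549 were small. RefSeq (GRCh38.p14) gave promoter windows for 9 of the 10 members, and each run below is the 250 bases before the annotated start, 5′ to 3′ on the gene's own strand. PTGS2 is chr1:186680424-186680673, minus strand, PLA2G4A is chr1:186828699-186828948, plus strand, and PTGES is chr9:129753043-129753292, minus strand. Capitals mark letters that match a searched motif on either strand.
PTGS2: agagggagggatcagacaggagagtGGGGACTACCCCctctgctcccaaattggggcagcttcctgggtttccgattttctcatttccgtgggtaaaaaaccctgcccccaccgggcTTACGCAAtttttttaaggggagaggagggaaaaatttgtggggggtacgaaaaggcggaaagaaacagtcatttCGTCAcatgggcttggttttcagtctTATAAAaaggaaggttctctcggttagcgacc
PLA2G4A: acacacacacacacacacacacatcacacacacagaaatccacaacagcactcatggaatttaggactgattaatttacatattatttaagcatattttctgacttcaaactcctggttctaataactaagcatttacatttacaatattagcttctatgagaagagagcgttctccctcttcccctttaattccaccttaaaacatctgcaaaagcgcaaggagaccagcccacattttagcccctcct
PTGES: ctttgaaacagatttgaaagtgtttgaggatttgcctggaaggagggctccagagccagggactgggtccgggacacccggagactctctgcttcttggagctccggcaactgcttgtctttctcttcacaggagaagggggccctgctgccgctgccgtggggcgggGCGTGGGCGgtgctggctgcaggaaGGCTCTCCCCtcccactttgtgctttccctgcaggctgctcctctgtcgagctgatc

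In all, 7 motifs were searched: the TATA box TATAAA, the CRE core TGACG, the C/EBP site TTNNGCAA, the NF-kB site GGGNNNNNCC, the AP-1 site TGANTCA, the EGR1 site GCGTGGGCG and the E-box CACGTG. The PTGS2 run holds a TATA box that begins 32 bases before the start, a CRE core 58 before, a C/EBP site 133 before and overlapping NF-kB matches 225 to 223 before. The PTGES run holds an EGR1 site 82 bases before the start and an NF-kB match 57 before, and no TATA box. The PLA2G4A run holds no match to the searched letters, and its GC content is 38.8%, against 50.4% for PTGS2 and 61.2% for PTGES. Over 35116 RefSeq windows of this length, the NF-kB letters occurred in 54.4%, the CRE core in 21.2%, the TATA box in 10.7%, the C/EBP site in 9.05%, the AP-1 site in 6.57%, the E-box in 6.34% and the EGR1 site in 0.720%. A match is a run of letters and not a measured binding site.

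Library totals ran from 30143047 to 40328208 expected counts. BLM stood at 72.1 to 82.4 CPM (counts scaled to library size, with TMM factors within a line) in the A549 control, 1.17 to 1.19 with siRNA1, 10.3 to 10.8 with siRNA2 and 6.18 to 6.80 with siRNA3, and at 33.5 to 35.9 in the MDA-MB-231 control against 5.07 to 5.23 with siRNA1. Over all genes, library 3 of A549 siRNA3 stood apart from its group (SD of its deviations 0.283 on the log2 scale, next highest library 0.202, lowest 0.117), and the siRNA3 results are given without it beside the counts of calls. Of the 7 leukocyte markers, CD3E, MS4A1 and FCGR3A were at 0 in every A549 library, while CD14 averaged 5.03 TPM (abundance scaled to transcript length) in the A549 control and 8.83 TPM in the MDA-MB-231 control, and ITGAM averaged 1.06 TPM in the A549 control. Of the 5 platelet and megakaryocyte genes, GP9 was at 0 in all 18 libraries. Their sum was 5.26 to 6.05 TPM in the A549 control and 2.42 to 3.06 TPM in the MDA-MB-231 control. In the same order, GP1BA averaged 3.56 and 1.06 TPM, PF4 1.01 and 1.52, ITGA2B 0.95 and 0.07, and PPBP 0 and 0.077. The 5 epithelial genes summed to 5115 to 5362 TPM in the A549 control and 1665 to 1976 TPM in the MDA-MB-231 control. The alveolar type 2 genes summed to 7.67 to 9.71 TPM in the A549 control, with SFTPA1 at 0. In the breast line's control they summed to more, 21.7 to 23.1 TPM, with NKX2-1 at 6.76 TPM against 0.0067 in the A549 control. ABCA3 made up most of both sums, at 15.2 TPM in the MDA-MB-231 control and 8.17 TPM in the A549 control. In MDA-MB-231 control cells ESR1 averaged 0.25 TPM and VIM 2780 TPM. The 5 luminal breast genes, ESR1 among them, summed to 112 to 130 TPM there, most of it XBP1 (113 TPM). Their sum was 63.6 to 71.9 TPM in the A549 control.

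**Figure D1:**
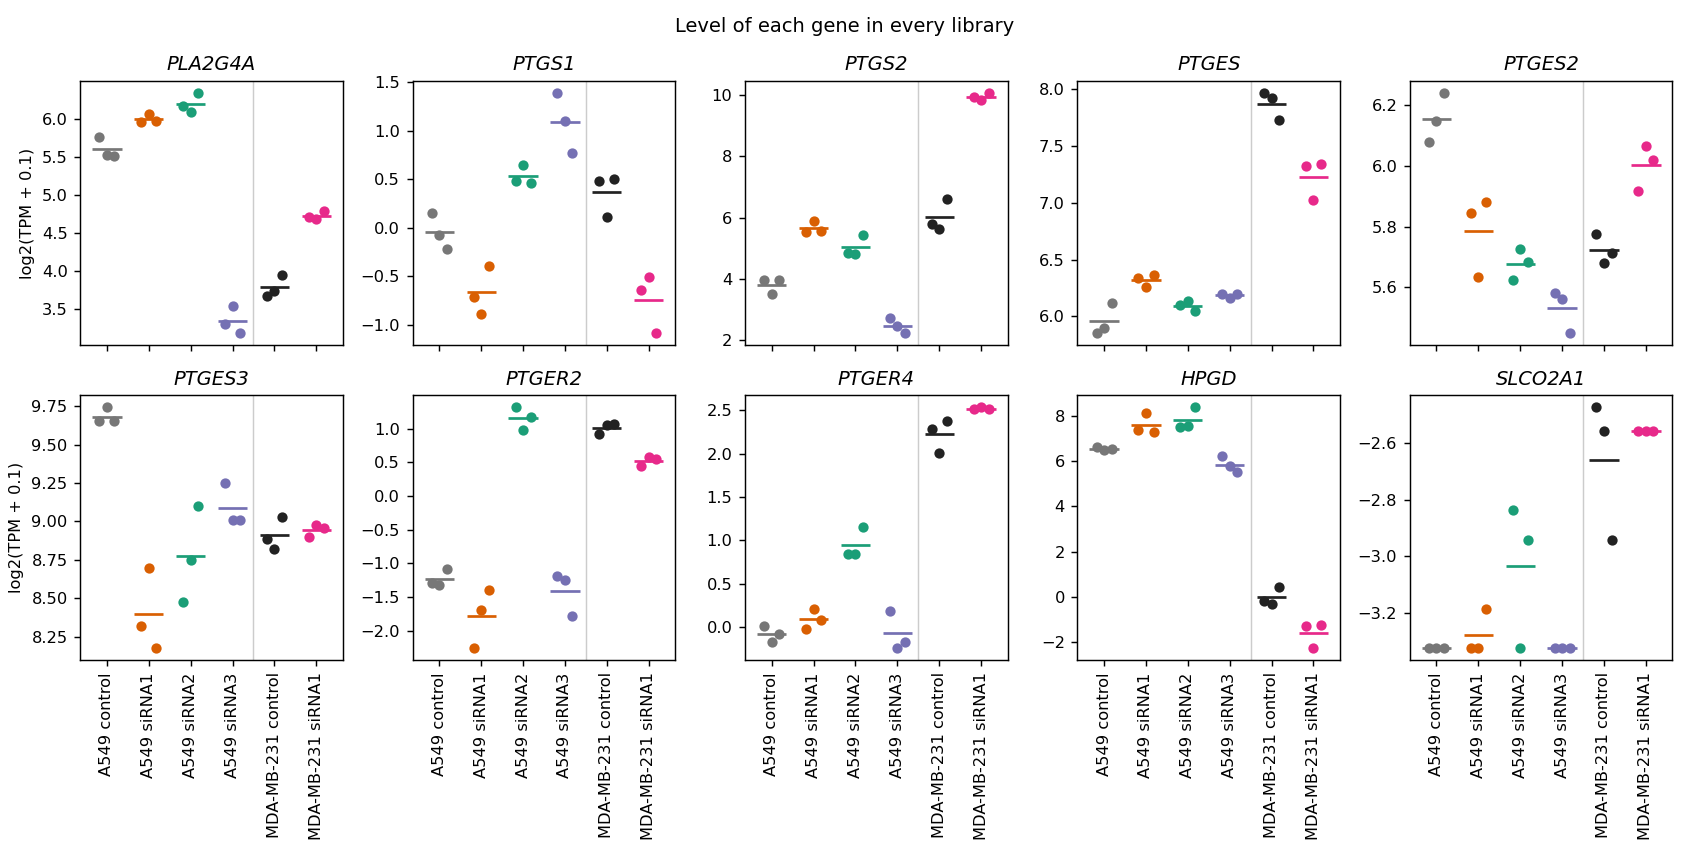
Each panel plots 1 gene, with log2(TPM + 0.1) on the vertical axis and the 6 groups on the horizontal axis. Points are libraries and bars are group means (n = 3), and PTGS2 lies lowest with A549 siRNA3 (4.61 to 6.56 TPM) and highest with MDA-MB-231 siRNA1 (915 to 1069 TPM).

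The 3 siRNAs did not move the route alike in A549. PTGS2 rose with siRNA1 and siRNA2 and fell with siRNA3, and HPGD, which inactivates the product, did the same. PTGS1 went the other way with siRNA1 and siRNA3, falling with the former and rising with the latter. PTGES2 and PTGES3 fell with all 3 siRNAs. In MDA-MB-231 with siRNA1, PTGS2 and PLA2G4A were higher and PTGS1, PTGES, PTGER2 and HPGD lower than in its control. Because RNA came from whole cultures, fewer cells carrying a transcript and less transcript per cell cannot be told apart.

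PLA2G4A supplies the substrate. The A549 control libraries had 81.1, 72.6 and 67.7 CPM, the siRNA1 libraries 80.7, 82.1 and 81.3, the siRNA2 libraries 104, 98.2 and 112, and the siRNA3 libraries 14.0, 16.9 and 15.5. The siRNA3 libraries lay far under all others, those with siRNA2 above every control library, and those with siRNA1 overlapped the highest control library. PLA2G4A fell by 2.25 ± 0.10 on the log2 scale with siRNA3 (4.77-fold lower, edgeR quasi-likelihood test, adjusted p = 7.09e-10 by Benjamini-Hochberg over all genes tested). It rose by 0.50 ± 0.09 with siRNA2 (edgeR adjusted p = 0.000253). With siRNA1 it stood at 0.14 ± 0.09 (edgeR adjusted p = 0.169), a value that became 0.39 and passed the test on log2(TPM + 1) (limma adjusted p = 0.00385). MDA-MB-231 had less of it, at 16.7, 17.8 and 19.5 CPM in control and 32.3, 32.5 and 34.2 with siRNA1, groups that did not overlap (1.83-fold).

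PTGS2, the inducible cyclooxygenase, had 36.2, 27.9 and 36.4 CPM in the A549 control libraries, 94.6, 114 and 95.4 with siRNA1, 65.6, 64.2 and 94.6 with siRNA2 and 14.7, 12.6 and 12.5 with siRNA3. No siRNA group overlapped the control: every library with siRNA1 or siRNA2 lay above it and every library with siRNA3 below it. PTGS2 rose by 1.60 ± 0.15 with siRNA1 (3.03-fold, edgeR adjusted p = 5.61e-07) and by 1.16 ± 0.15 with siRNA2 (2.23-fold, edgeR adjusted p = 1.96e-05). It fell by 1.34 ± 0.16 with siRNA3 (2.53-fold lower, edgeR adjusted p = 7.76e-06). Over every alternative setting and left-out library, these log2 fold changes stayed between 1.48 and 1.85, 0.95 and 1.26, and -1.45 and -1.199.

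In MDA-MB-231, PTGS2 had 115, 105 and 195 CPM in the control libraries and 1912, 1828 and 2087 with siRNA1. Control library 3 was the highest of its group, and still far under the lowest siRNA1 library. The log2 fold change was 3.81 ± 0.21, or 14.0-fold. PTGS2 took 0.0102% to 0.0189% of all counts in the control and 0.188% to 0.215% with siRNA1. Ranked by TPM among all genes it moved from places 1909 to 3607 to places 127 to 141.

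PTGS1, the constitutive cyclooxygenase, was scarce. The A549 control libraries had 2.65, 2.36 and 1.97 CPM, the siRNA1 libraries 1.17, 0.93 and 1.53, the siRNA2 libraries 3.24, 3.75 and 3.11, and the siRNA3 libraries 6.27, 5.31 and 4.87. The groups lay in the order siRNA1, control, siRNA2, siRNA3 with no overlap between neighbours. PTGS1 fell by 0.94 ± 0.19 with siRNA1 (edgeR adjusted p = 0.000611) and rose by 1.24 ± 0.17 with siRNA3 (edgeR adjusted p = 3.23e-05). Its rise of 0.53 ± 0.18 with siRNA2 (edgeR adjusted p = 0.0179) was lost without siRNA2 library 2 (adjusted p = 0.0755) or control library 3 (adjusted p = 0.0791). MDA-MB-231 had 3.04, 2.33 and 2.98 CPM in control and 1.16, 1.37 and 0.83 with siRNA1, again without overlap, a log2 fold change of -1.31 ± 0.21.

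On the TPM scale, which corrects for length, PTGS2 exceeded PTGS1 in every library. The ratio was 13.2 to 20.4 in the A549 control, 71.0 to 134 with siRNA1, 19.2 to 34.0 with siRNA2 and 2.60 to 2.86 with siRNA3. In MDA-MB-231 it was 42.3 to 73.9 in control and 1525 to 2889 with siRNA1. The siRNA3 cells thus came nearest to equal mRNA of the 2 enzymes, and MDA-MB-231 cells with siRNA1 were the farthest from it.

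**Figure D2:**
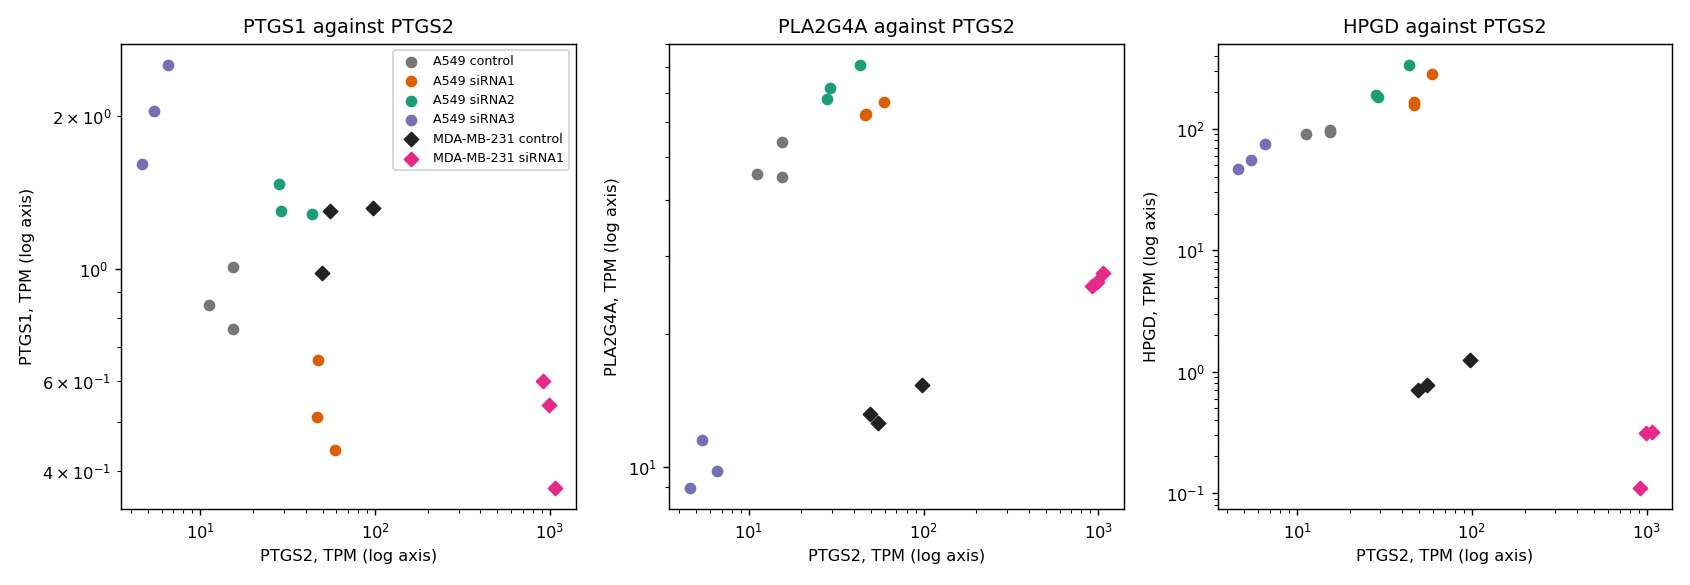
The 3 panels plot PTGS1, PLA2G4A and HPGD (vertical axes, TPM) against PTGS2 (horizontal axis, TPM), all on log axes, with 1 point per library (circles A549, diamonds MDA-MB-231). In A549 the 3 siRNA3 libraries sit at the low end for PTGS2, PLA2G4A and HPGD and at the high end for PTGS1 (1.61 to 2.52 TPM), and HPGD is at most 1.25 TPM in MDA-MB-231.

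The prostaglandin E synthases answered differently from the cyclooxygenases. PTGES, the microsomal synthase usually induced together with PTGS2, had 50.5, 55.4 and 60.7 CPM in the A549 control, 61.5, 55.4 and 62.7 with siRNA1, 58.0, 59.6 and 53.8 with siRNA2 and 61.4, 61.7 and 74.7 with siRNA3. The siRNA1 and siRNA2 libraries overlapped the control, and those with siRNA3 lay just above it. With siRNA1 and siRNA2 its log2 fold changes were 0.11 ± 0.10 (edgeR adjusted p = 0.328) and 0.04 ± 0.10 (edgeR adjusted p = 0.734), although on log2(TPM + 1) the siRNA1 value was 0.36 and passed the test (limma adjusted p = 0.00054). The rise of 0.25 ± 0.10 with siRNA3 (edgeR adjusted p = 0.0408) was lost under DESeq2 size factors (adjusted p = 0.0647), without the filter on low counts (adjusted p = 0.0542), in the DESeq2 Wald test (adjusted p = 0.0600), in a fit of these 2 groups alone (adjusted p = 0.0793) and without siRNA3 library 3 (adjusted p = 0.153). It was also lost in edgeR without control library 1 (adjusted p = 0.170) or 2 (adjusted p = 0.0926), siRNA1 library 1 (adjusted p = 0.0555), or siRNA2 library 1 (adjusted p = 0.0549) or 2 (adjusted p = 0.0535). In MDA-MB-231, where PTGS2 was 14.0-fold higher, PTGES had 194, 192 and 160 CPM in control and 117, 97.1 and 119 with siRNA1, so the control libraries were all higher (log2 fold change -0.71 ± 0.09).

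PTGES3, also known as the HSP90 co-chaperone p23, was the most abundant member by TPM in all A549 libraries. Control libraries had 813, 918 and 814 CPM, the siRNA1 libraries 281, 345 and 254, the siRNA2 libraries 349, 424 and 515, and the siRNA3 libraries 587, 512 and 602. Every siRNA library lay below every control library. PTGES3 fell by 1.53 ± 0.14 with siRNA1 (2.89-fold lower, edgeR adjusted p = 3.79e-07), by 0.98 ± 0.14 with siRNA2 (edgeR adjusted p = 3.82e-05) and by 0.58 ± 0.14 with siRNA3 (edgeR adjusted p = 0.00244). In MDA-MB-231 the groups overlapped, at 424, 412 and 452 CPM in control and 401, 432 and 419 with siRNA1. The log2 fold change there was -0.04 ± 0.05 on counts and 0.03 on log2(TPM + 1).

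PTGES2, another membrane-associated synthase, changed by nearly the same amount with each A549 siRNA on the count scale. Control libraries had 64.5, 70.6 and 72.4 CPM, and the 9 siRNA libraries lay between 41.1 and 49.3 CPM, all below them. PTGES2 fell by 0.59 ± 0.08 with siRNA1 (edgeR adjusted p = 1.64e-05), by 0.54 ± 0.08 with siRNA2 (edgeR adjusted p = 5.62e-05) and by 0.62 ± 0.08 with siRNA3 (edgeR adjusted p = 1.58e-05). In MDA-MB-231 it had 47.4, 44.4 and 43.7 CPM in control and 49.2, 52.4 and 52.3 with siRNA1, a log2 fold change of 0.18 ± 0.06 in the other direction.

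Within the summed TPM of the 3 synthases, PTGES3 took 84.8% to 86.8% in the A549 control, 67.2% to 76.6% with siRNA1, 75.2% to 82.4% with siRNA2 and 81.3% to 83.4% with siRNA3. PTGES took 6.04% to 7.29% in the control, and 14.2% to 19.1%, 9.91% to 14.4% and 10.0% to 11.6% with the 3 siRNAs in the same order. So PTGES was a larger share of synthase mRNA in every A549 siRNA library than in any control library, while its own CPM overlapped the control with siRNA1 and siRNA2. In MDA-MB-231 the PTGES share ran the other way, from 27.0% to 32.6% in control to 18.6% to 22.9% with siRNA1.

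**Figure D3:**
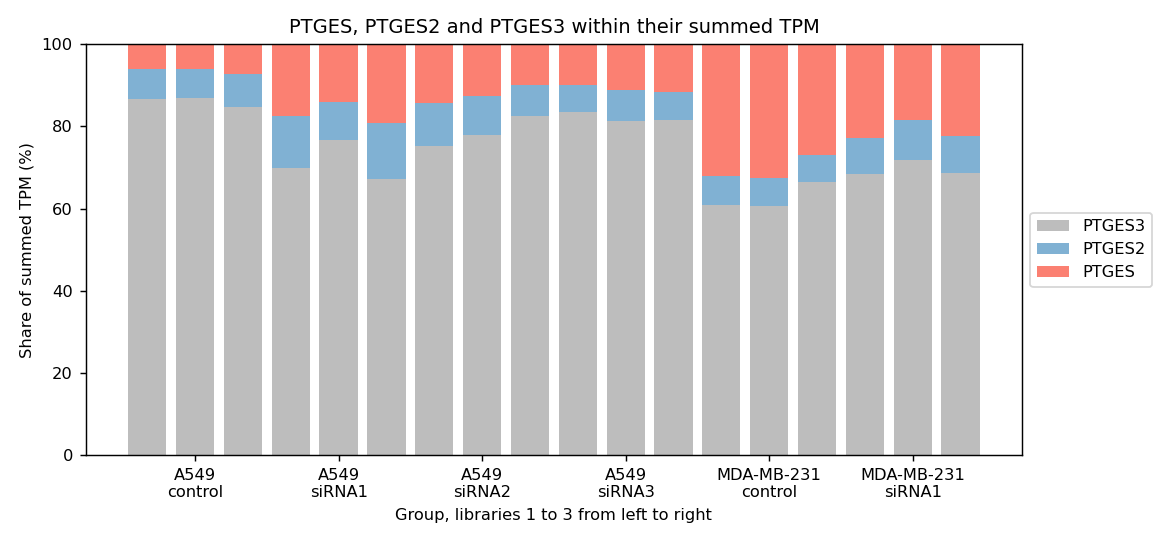
Each bar is 1 library, ordered 1 to 3 within its group, and its colours give the share of PTGES3, PTGES2 and PTGES in their summed TPM (vertical axis, %). PTGES3 holds 84.8% to 86.8% in the A549 control and less in every other group.

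Receptor transcripts were scarce in A549, and siRNA2 was the siRNA that raised them. PTGER2, a cAMP-raising prostaglandin E2 receptor, had 0.39, 0.40 and 0.46 CPM in the A549 control, 0.12, 0.21 and 0.30 with siRNA1, 2.89, 2.27 and 2.51 with siRNA2 and 0.41, 0.40 and 0.27 with siRNA3. The siRNA2 libraries stood far above the rest, and the siRNA3 libraries overlapped the control. PTGER2 rose by 2.61 ± 0.23 with siRNA2 (6.09-fold, edgeR adjusted p = 5.86e-07). With siRNA1 its log2 fold change was -0.98 ± 0.32, which became -0.697 without siRNA1 library 1 and -0.147 on log2(TPM + 1). With siRNA3 it stood at -0.21 ± 0.30. Only the control and siRNA2 groups had all libraries above the filter's count level. PTGER2 thus entered the comparisons of siRNA1 and siRNA3 through the control and siRNA2 libraries, and no test is given for them.

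PTGER4, the other cAMP-raising receptor of the set, had 1.61, 1.47 and 1.51 CPM in the A549 control, 1.37, 1.55 and 1.47 with siRNA1, 2.89, 2.91 and 3.47 with siRNA2 and 1.742, 1.302 and 1.599 with siRNA3. Only the siRNA2 libraries left the control range. PTGER4 rose by 1.01 ± 0.15 with siRNA2 (2.02-fold, edgeR adjusted p = 5.70e-05), and its log2 fold changes were -0.07 ± 0.16 with siRNA1 (edgeR adjusted p = 0.709) and 0.02 ± 0.16 with siRNA3 (edgeR adjusted p = 0.928). In TPM, PTGER4 exceeded PTGER2 by 2.297 to 2.936 times in the A549 control, but with siRNA2 the ratio was 0.711 to 0.981. The siRNA2 group was the one where PTGER2 was the more abundant of the pair in every library.

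In MDA-MB-231 the receptors were more abundant and moved apart. PTGER2 had 2.00, 2.23 and 2.14 CPM in control and 1.32, 1.48 and 1.42 with siRNA1 (log2 fold change -0.59 ± 0.15). PTGER4 had 7.50, 6.27 and 7.63 CPM in control and 8.15, 8.52 and 8.26 with siRNA1 (log2 fold change 0.22 ± 0.10). Neither gene's groups overlapped, and the PTGER4 to PTGER2 ratio in TPM was 1.99 to 2.66 in control and 4.09 to 4.40 with siRNA1.

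HPGD, the dehydrogenase that inactivates prostaglandin E2, had 146, 143 and 140 CPM in the A549 control, 220, 348 and 209 with siRNA1, 270, 281 and 460 with siRNA2 and 108, 82.2 and 81.9 with siRNA3. All libraries with siRNA1 and siRNA2 lay above the control and all with siRNA3 below it, with 1 high library in each of the siRNA1 and siRNA2 groups. HPGD rose by 0.85 ± 0.21 with siRNA1 (1.81-fold, edgeR adjusted p = 0.00281) and by 1.24 ± 0.22 with siRNA2 (2.35-fold, edgeR adjusted p = 0.000237). Its fall of 0.66 ± 0.22 with siRNA3 (edgeR adjusted p = 0.0167) was lost without siRNA3 library 2 (adjusted p = 0.0627).

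HPGD mRNA was almost absent from MDA-MB-231, at 1.07, 0.99 and 1.504 CPM in control and 0.36, 0.13 and 0.41 with siRNA1. The siRNA1 libraries were all lower, and only the control group passed the count filter in full (log2 fold change -1.96 ± 0.35). In TPM the PTGS2 to HPGD ratio was 0.124 to 0.165 in the A549 control and 69.5 to 78.0 in the MDA-MB-231 control. With siRNA1 it was 0.210 to 0.299 in A549 and 3179 to 8321 in MDA-MB-231. SLCO2A1, the uptake transporter, had 0 to 3 counts in the A549 libraries and 2 to 5 counts in those of MDA-MB-231, failed the count filter in both lines and was not tested.

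**Figure D4:**
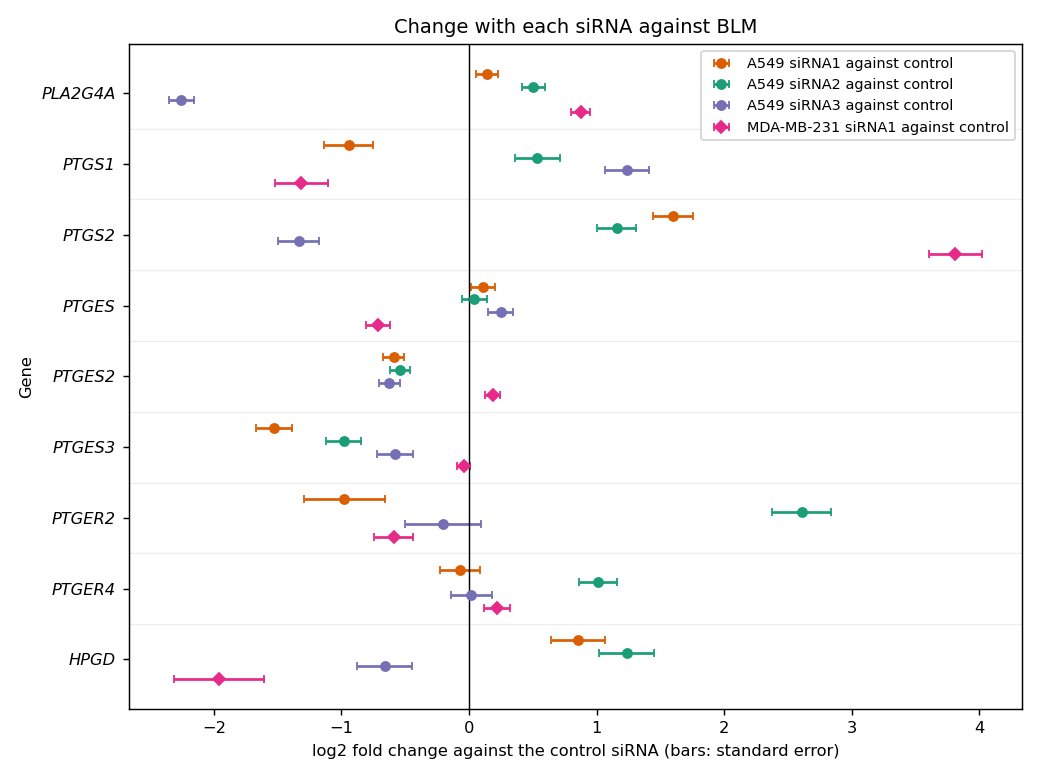
The horizontal axis is the log2 fold change of each siRNA group against the control siRNA of its line, with bars for the standard error, and the 9 tested genes are on the vertical axis. PTGS2 spans -1.34 (A549 siRNA3) to 3.81 (MDA-MB-231), and PTGES2 lies between -0.62 and -0.54 with each A549 siRNA.

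Of the 9 tested members, 2 rose and 4 fell with siRNA1 in A549, where 71.7% of the 15898 genes tested were called (39.0% higher, 32.8% lower). With siRNA2, 6 rose and 2 fell, where 60.9% of genes were called (32.5% higher, 28.4% lower). With siRNA3, 2 rose and 5 fell, where 61.3% were called (30.9% higher, 30.4% lower). The members' median log2 fold changes were -0.07, 0.53 and -0.58, beside 0.09, 0.04 and 0.00 over all genes tested. Calls were common throughout these comparisons. Of 9 members, the 6 called with siRNA1 lie near the share of all genes, and the 8 and 7 called with siRNA2 and siRNA3 above it. The siRNA1 count includes PTGER2, whose libraries there did not all reach the filter's count level. Whether these counts exceed the background was not tested. Without siRNA3 library 3 the siRNA3 count was 6, with PTGES no longer called (0.15, adjusted p = 0.153 in edgeR). The changes then stood at -2.26 for PLA2G4A, 1.32 for PTGS1, -0.64 for PTGES2, -0.63 for PTGES3 and -0.59 for HPGD, all still called, as was PTGS2. All 3 comparisons use the same control libraries. In MDA-MB-231 3 members were called higher and 4 lower, where 55.3% of 15280 genes were called (27.5% higher, 27.8% lower), a count that carries no weight because the comparison served to choose the genes.

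The siRNAs were also set against each other, which leaves the control out. PTGS2 was 7.65-fold higher with siRNA1 than with siRNA3 (log2 difference 2.94 ± 0.16, edgeR adjusted p = 3.74e-09) and 5.64-fold higher with siRNA2 than with siRNA3 (2.49 ± 0.16, edgeR adjusted p = 2.58e-08). Its difference between siRNA1 and siRNA2, 0.44 ± 0.15 (edgeR adjusted p = 0.0220), was lost without siRNA1 library 2 (adjusted p = 0.0867) or siRNA2 library 1 (adjusted p = 0.0943) or 2 (adjusted p = 0.102). PLA2G4A was 5.26-fold lower with siRNA3 than with siRNA1 (log2 difference of siRNA1 from siRNA3 2.40 ± 0.10, edgeR adjusted p = 1.38e-10) and 6.77-fold lower than with siRNA2 (2.76 ± 0.10, edgeR adjusted p = 1.39e-10). PTGER2 was 11.99-fold higher with siRNA2 than with siRNA1 (log2 difference of siRNA1 from siRNA2 -3.58 ± 0.26) and 7.02-fold higher than with siRNA3 (2.81 ± 0.25). Its siRNA1 and siRNA3 libraries did not all reach the filter's count level, so no test is given for these differences.

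HPGD was 2.85-fold higher with siRNA1 and 3.72-fold higher with siRNA2 than with siRNA3 (edgeR adjusted p = 3.67e-05 and 6.63e-06). Between siRNA1 and siRNA2 it stood at -0.38 ± 0.21 (edgeR adjusted p = 0.146), which became -0.65 and passed the test without siRNA1 library 2 (adjusted p = 0.0145). PTGS1 ran in the reverse order, 4.54-fold lower with siRNA1 than with siRNA3 (edgeR adjusted p = 2.3e-07). PTGES2 did not pass the edgeR test between any pair of siRNAs, with differences of -0.05 ± 0.08, 0.03 ± 0.08 and 0.08 ± 0.08 (edgeR adjusted p = 0.628, 0.723 and 0.396). On log2(TPM + 1), however, its difference between siRNA1 and siRNA3 became 0.25 and passed the test (limma adjusted p = 0.0114). PTGER4 was 2.11-fold lower with siRNA1 than with siRNA2 and 1.99-fold higher with siRNA2 than with siRNA3 (edgeR adjusted p = 3.99e-05 and 8.23e-05).

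Between siRNA1 and siRNA2, 6 of 9 members were called, 1 higher and 5 lower with siRNA1, where 56.0% of all genes were called (28.6% higher, 27.4% lower). Between siRNA1 and siRNA3, 5 were called, 3 higher and 2 lower with siRNA1, beside 66.6% of all genes (34.4% higher, 32.3% lower). Between siRNA2 and siRNA3, 7 were called, 5 higher and 2 lower with siRNA2, beside 59.0% of all genes (30.1% higher, 28.9% lower). The counts of siRNA2 against siRNA1 and against siRNA3 include PTGER2, and nothing is read from its calls there.

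On the TPM scale, used here to order genes within each line, the control groups of the 2 lines ordered the route differently. In the A549 control the mean levels were PTGES3 822, HPGD 94.0, PTGES2 71.2, PTGES 62.2, PLA2G4A 48.5, PTGS2 14.0, PTGS1 0.873, PTGER4 0.850 and PTGER2 0.327 TPM. PTGES2 and PTGES overlapped between libraries, as did PTGS1 and PTGER4. In the MDA-MB-231 control they were PTGES3 483, PTGES 235, PTGS2 67.3, PTGES2 52.7, PLA2G4A 13.7, PTGER4 4.60, PTGER2 1.92, PTGS1 1.2 and HPGD 0.913 TPM, with PTGS2 and PTGES2 overlapping and PTGS1 and HPGD overlapping. In MDA-MB-231 with siRNA1 PTGS2 came before all other members, at 990 TPM against 493 TPM for PTGES3. HPGD came next after PTGES3 in the A549 control and last of the 9 in the MDA-MB-231 control. These differences between lines were not tested, since each line was normalised on its own.

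Low genes depend on the scale. On log2(TPM + 1) the change of PTGS1 with siRNA1 shrank from -0.94 to -0.29, with siRNA2 from 0.53 to 0.33 and with siRNA3 from 1.24 to 0.70, that of PTGER2 with siRNA2 from 2.61 to 1.24 and that of PTGER4 with siRNA2 from 1.01 to 0.62, with the same sign and past the test in limma for each of these 5. That scale also moved the median of all genes with siRNA1 from 0.09 to 0.23 and the share of higher among called genes from 54.3% to 68.4%. In MDA-MB-231 the low genes also varied over the alternatives and left-out libraries. PTGS1 ran from -1.48 to -0.549 there, HPGD from -2.24 to -0.612 and PTGER2 from -0.633 to -0.321.

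Fibroblasts can make prostaglandin E2, and their markers differed between the A549 groups. The 6 genes COL1A1, COL1A2, COL3A1, PDGFRB, DCN and LUM summed to 1.69 to 1.79 TPM in the A549 control, where DCN was at 0, and to 10.96 to 12.64 with siRNA1, 14.7 to 16.0 with siRNA2 and 5.42 to 9.27 with siRNA3. COL1A1 made up most of each sum, with means of 1.28, 9.13, 11.5 and 7.50 TPM in the same order. LUM averaged 0.113, 1.59, 1.09 and 0.0567 TPM and COL3A1 0.243, 0.883, 2.53 and 0.157 TPM, so both were higher with siRNA1 and siRNA2 but not with siRNA3. Of the 4 fibroblast genes tested, 3 rose and 0 fell with siRNA1 and with siRNA2, and 1 rose and 1 fell with siRNA3 (median -0.10). In MDA-MB-231 the sums were 6.93 to 7.64 in control and 8.95 to 9.70 with siRNA1, where COL1A1 went from 4.78 to 7.74 TPM while PDGFRB went from 1.09 to 0.603 and the median of the 4 tested genes was -0.57. The 5 epithelial genes summed to 13115 to 14952 TPM with A549 siRNA1, 6687 to 6943 with siRNA2 and 5138 to 5471 with siRNA3, most of it KRT8 and KRT18. In the order control, siRNA1, siRNA2 and siRNA3, KRT19 averaged 61.1, 446, 337 and 111 TPM. CDH1 averaged 17.7, 68.5, 72.7 and 1.49 TPM and EPCAM 2.69, 11.4, 66.2 and 2.01 TPM. The 7 leukocyte genes summed to 5.26 to 6.97 TPM in the A549 control and 4.27 to 9.64 across the A549 siRNA groups. In MDA-MB-231 the leukocyte sum was 11.3 to 12.1 TPM in control and 13.9 to 15.1 with siRNA1, most of it CD14 at 8.83 and 12.7 TPM. Their part in the changes of PTGS2, PLA2G4A and HPGD was not tested.

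In all, 9 lists of other pathway genes, 113 in all, were described around the members, with 93 tested in A549 and 92 in MDA-MB-231. In A549 39 rose and 28 fell with siRNA1, 34 and 24 with siRNA2, and 33 and 29 with siRNA3, shares near those of all genes given above. In MDA-MB-231 36 were called higher and 23 lower, as a description. The counts for single lists below are to be read against the shares of all genes called higher and lower, which were 39.0% and 32.8% with siRNA1, 32.5% and 28.4% with siRNA2, 30.9% and 30.4% with siRNA3, and 27.5% and 27.8% in MDA-MB-231. No list was tested as a set, and 14 of the 93 genes tested in A549 had a group whose libraries did not all reach the filter's count level. They were PLA2G10, FAAH, TBXA2R, ALOX5, ALOX12, ALOX12B, DPEP1, GGT5, IL1A, IL1B, TLR2, TLR4, CELF2 and FOSB. These 14 entered the tests through the groups where they are higher. The list counts include them, and nothing is read from their calls.

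Of 14 tested genes of arachidonate release and re-esterification in A549, 11 rose and 0 fell with siRNA1, 10 rose and 1 fell with siRNA2, and 8 rose and 1 fell with siRNA3 (medians 0.75, 0.49 and 0.35, beside 0.09, 0.04 and 0.00 over all genes). MGLL, the lipase that frees arachidonic acid from 2-arachidonoylglycerol, rose by 2.38 ± 0.08, 0.68 ± 0.08 and 1.78 ± 0.08 with siRNA1, siRNA2 and siRNA3 (largest edgeR adjusted p = 7.40e-06). The secreted phospholipase gene PLA2G12A rose by 1.24 ± 0.12, 1.74 ± 0.12 and 0.33 ± 0.13 (largest edgeR adjusted p = 0.0371). With siRNA3, then, PLA2G4A fell while MGLL and PLA2G12A rose. In MDA-MB-231 14 genes of this list were also tested, with PLA2G4D in place of PLA2G10, and 2 were higher and 6 lower (median -0.06). There MGLL stood at -0.73 ± 0.06. PLA2G4D averaged 2.11 CPM in control and 6.34 with siRNA1, and PLA2G4C 0.903 and 1.89.

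Among the other prostanoid synthases, 4 of 7 were tested. TBXAS1, thromboxane synthase, rose by 1.098 ± 0.13, 1.32 ± 0.13 and 1.85 ± 0.13 with the 3 A549 siRNAs (largest edgeR adjusted p = 5.31e-06). AKR1B1, an aldose reductase with prostaglandin F synthase activity, fell by 0.91 ± 0.12, 0.96 ± 0.12 and 0.61 ± 0.12 (largest edgeR adjusted p = 0.000464) and stood at -0.84 ± 0.05 in MDA-MB-231. Of the other 7 prostanoid receptors only TBXA2R passed the filter in A549, and PTGDR was at 0 in all libraries. Of the 8 other reductases and transporters 4 rose and 3 fell with siRNA1, 0 rose and 2 fell with siRNA2, and 1 rose and 5 fell with siRNA3. CBR3, a carbonyl reductase, fell by 2.23 ± 0.13 with siRNA1 (edgeR adjusted p = 3.01e-09).

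The lipoxygenase branch uses the same substrate. Of its 12 tested genes 5 rose and 4 fell with siRNA1, 2 and 3 with siRNA2, and 5 and 3 with siRNA3. ALOX5, ALOX12, ALOX12B, DPEP1 and GGT5 are among the 12, though not all their groups reached the filter's count level. ALOX5, which makes leukotriene A4, had means of 0.0870 CPM in the A549 control, 2.96 with siRNA1, 0.708 with siRNA2 and 0.283 with siRNA3. Only the siRNA1 and siRNA2 groups had all libraries above the filter's 0.287 CPM, so ALOX5 entered the test through the groups where it is high, and its levels are given without a test. ALOX5AP, its activating partner, was highest with siRNA3, where it rose by 3.40 ± 0.21 (edgeR adjusted p = 1.84e-08). GGT1, which trims leukotriene C4, rose by 1.52 ± 0.09, 1.37 ± 0.09 and 1.04 ± 0.09 with the 3 siRNAs (largest edgeR adjusted p = 3.77e-07).

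Of 15 tested ligands and receptors that induce PTGS2, 6 rose and 5 fell with siRNA1, 9 and 2 with siRNA2, and 6 and 4 with siRNA3. The growth factor TGFA rose by 1.06 ± 0.08, 1.11 ± 0.08 and 0.67 ± 0.08 (largest edgeR adjusted p = 8.47e-06), and its relative EREG fell by 1.48 ± 0.19, 0.59 ± 0.19 and 0.92 ± 0.19 (largest edgeR adjusted p = 0.0146). The cytokine IL1A averaged 0.337 CPM in the A549 control and 1.58 with siRNA3, where PTGS2 fell. Its control libraries did not all reach the filter's count level, so its log2 fold change of 2.21 ± 0.28 is given without a test. In MDA-MB-231 7 of the 15 were called higher and 3 lower (median 0.20). There IL1A averaged 82.6 CPM in control and 216 with siRNA1, and EREG 303 and 838. Other genes of the list were lower with siRNA1: EGF averaged 3.33 and 1.06 CPM, AREG 103 and 74.0, and TLR4 127 and 95.5. Their part in the change of PTGS2 was not tested.

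Of 15 transcription factors of the PTGS2 promoter, 3 rose and 5 fell with siRNA1, 5 and 3 with siRNA2, and 4 and 3 with siRNA3, and in MDA-MB-231 9 were called higher and 2 lower (medians 0.01, -0.06, 0.12 and 0.28). CEBPB, which binds C/EBP sites, averaged 59.8 CPM in the MDA-MB-231 control and 158 with siRNA1, but 32.5 in the A549 control and 29.0 to 32.7 with the A549 siRNAs. The AP-1 subunit JUN rose by 2.70 ± 0.08, 1.47 ± 0.08 and 2.98 ± 0.08 with the 3 A549 siRNAs (largest edgeR adjusted p = 5.96e-09). FOS rose by 1.17 ± 0.15 with siRNA2 and fell by 0.76 ± 0.17 with siRNA3 (edgeR adjusted p = 1.25e-05 and 0.00128), stood at 0.06 ± 0.15 with siRNA1 (edgeR adjusted p = 0.751) and at 1.94 ± 0.14 in MDA-MB-231. NFKB1 fell by 1.05 ± 0.06 with siRNA1 and by 0.49 ± 0.06 with siRNA2 and rose by 0.39 ± 0.06 with siRNA3 (largest edgeR adjusted p = 0.000119). In MDA-MB-231 NFKB1 averaged 61.8 CPM in control and 45.6 with siRNA1. RELA, another NF-kB subunit, averaged 83.6 and 118 CPM there, and 77.1 in the A549 control against 74.2 to 87.9 with the A549 siRNAs. The part of these factors in the changes of PTGS2 was not tested.

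Of 12 regulators of PTGS2 mRNA turnover, 6 rose and 4 fell with siRNA1, 4 and 4 with siRNA2, and 4 and 3 with siRNA3. ZFP36L1, which promotes decay of AU-rich mRNAs, rose by 1.05 ± 0.07, 1.25 ± 0.07 and 1.06 ± 0.07 (largest edgeR adjusted p = 3.60e-08). HNRNPD, another AU-rich element binder, fell by 1.48 ± 0.10, 0.72 ± 0.10 and 0.24 ± 0.10 (largest edgeR adjusted p = 0.0465).

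Genes that respond to cAMP, the messenger downstream of PTGER2 and PTGER4, moved both ways in A549. Of 12, 2 rose and 6 fell with siRNA1, 3 rose and 7 fell with siRNA2, and 3 rose and 7 fell with siRNA3, with medians of -0.21, -0.61 and -0.57. The nuclear receptor NR4A1 fell by 1.76 ± 0.10 with siRNA2 and by 2.96 ± 0.11 with siRNA3 (edgeR adjusted p = 9.70e-09 and 2.17e-10), and the clock gene PER1 fell by 1.16 ± 0.14, 0.98 ± 0.14 and 1.70 ± 0.15 (largest edgeR adjusted p = 5.28e-05). The AP-1 subunit FOSB, at 0.329 CPM on average in the control, had log2 fold changes of 0.88 ± 0.27, 3.35 ± 0.23 and 2.52 ± 0.24. Its control libraries did not all reach the filter's count level. FOSB thus entered the test through the groups where it is high, and no test is given, though the counts of risers include it. The other risers were the kinase SIK1 with siRNA1 (0.82 ± 0.08), RGS2, a regulator of G-protein signalling, with siRNA2 and siRNA3 (0.69 ± 0.13 and 0.50 ± 0.13), PDE4B with siRNA2 (0.39 ± 0.07) and the phosphatase DUSP1 with siRNA3 (0.68 ± 0.08), with a largest edgeR adjusted p of 0.00339 (RGS2 was named after its values were seen). In MDA-MB-231 9 of the 12 were called higher and 1 lower (median 0.69, beside 0.01 over all genes), with FOSB at 2.06 ± 0.17, NR4A1 at 1.23 ± 0.20 and PER1 at 0.68 ± 0.10, and the phosphodiesterase PDE4B lower at -1.87 ± 0.14. The 2 receptor genes in that line stood at -0.59 and 0.22.

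**Figure D5:**
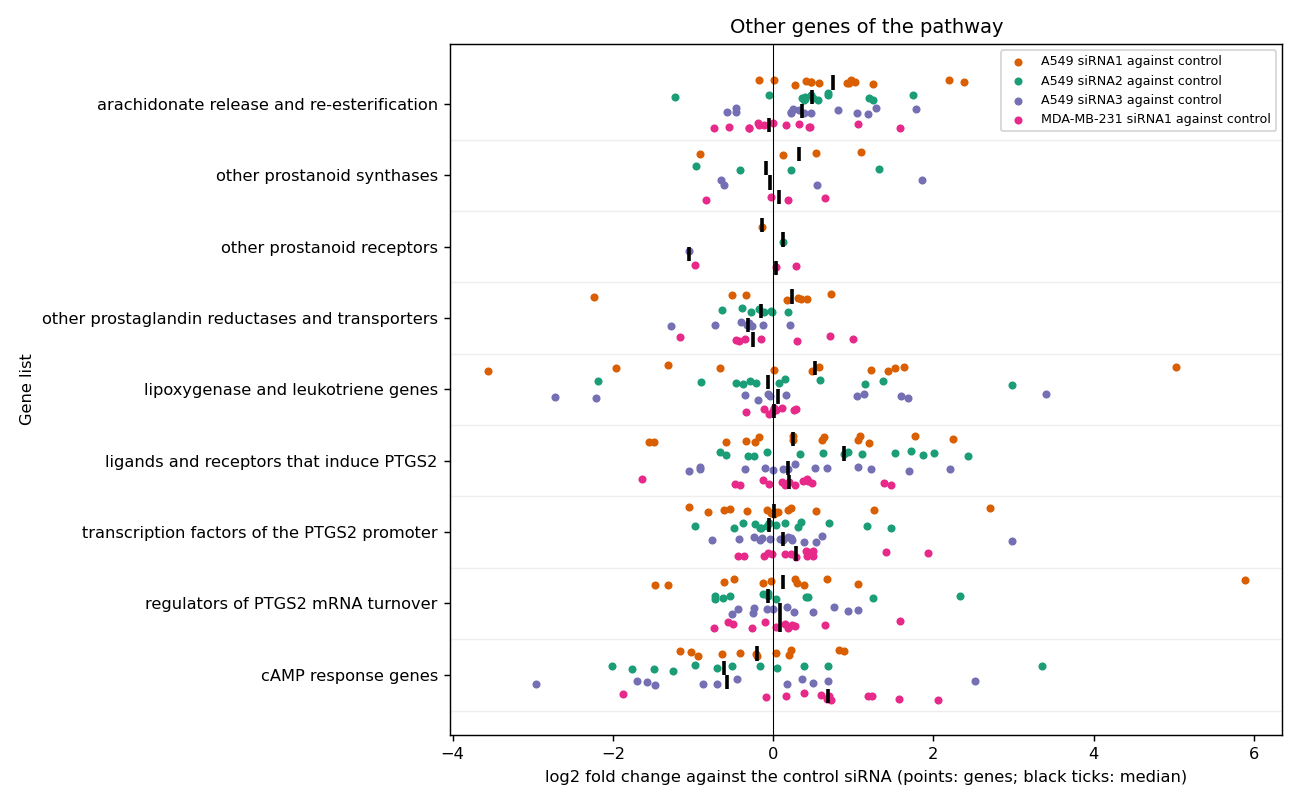
Points are the tested genes of each list (vertical axis) and the horizontal axis is their log2 fold change against the control siRNA of the line, with black ticks at list medians. The cAMP response genes have a median of 0.69 in MDA-MB-231 and of -0.21, -0.61 and -0.57 with the A549 siRNAs.

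Over the 18 libraries, 13041 genes were ranked by Pearson's r with PTGS2, on log2 CPM after the mean of the line's control libraries was subtracted. The points share libraries, depth and the group structure, and r is given as a description. The highest were SDAD1P1 (0.97), LINC02210 (0.96), COX19 (0.96), RNF44 (0.95) and APPBP2 (0.95), and the lowest were CCL2 (-0.98), TRAM2 (-0.97) and GFRA1 (-0.95). SDAD1P1 is a pseudogene, so its counts may include reads of its parent gene. The chemokine gene CCL2 had log2 fold changes of -0.73 ± 0.16, -0.79 ± 0.16 and 1.29 ± 0.15 with the A549 siRNAs and of -2.78 ± 0.19 in MDA-MB-231. Its opposite sign to PTGS2 follows from its selection for a low r over these libraries, so no test is given. Among the members, r was 0.79 for PLA2G4A, 0.39 for PTGES2, 0.26 for PTGER4, -0.0013 for PTGES3, -0.29 for HPGD, -0.84 for PTGS1 and -0.85 for PTGES. The value for HPGD joined 2 opposite patterns, with r of 0.92 over the 12 A549 libraries and -0.86 over the 6 of MDA-MB-231.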

How the data were processed

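RNA sequencing libraries (TruSeq Stranded Total RNA with Ribo-Zero Gold, per the labels' protocols) were made from 12 A549 and 6 MDA-MB-231 samples, grouped by the cell line, siRNA and number in their titles. The deposited expected counts came from RSEM on hg19, per the submitters' processing notes, and the deposited TPM values are scaled by the authors to transcript length and a fixed total, per the file headers. The RSEM version, aligner, annotation and strand setting were not given in the sources used here. RSEM shares reads between similar transcripts, but all 180 member counts were whole (any decimal other than 0 counted as not whole). FPKM values were not used.

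Counts were rounded and tested with edgeR 4.0.16 in R 4.3.3 (TMM scaling, filterByExpr with minimum count 10 and minimum total 15, quasi-likelihood F test), with 1 fit for the 12 A549 libraries and another for the 6 of MDA-MB-231. A gene was called when its p, adjusted by Benjamini and Hochberg's method, fell under 0.05. Standard errors are the absolute log2 fold change divided by the square root of F. Alternatives were DESeq2 size factors, the DESeq2 1.42.0 Wald test, no filter, a filter of 1 CPM in 3 libraries, limma 3.58.1 on log2 TPM with 1 or 0.1 added, a block for the replicate number, a fit of the compared groups alone, and leaving out each library. No 2 libraries of a group held identical values, and their counts differed beyond sampling noise (chi-square per degree of freedom 2.71 to 83.9 over 18 pairs). Tested on simulated data for A549 siRNA1 against control, with 15591 genes, recovery was 60.6% for 1.5-fold changes, 83.1% at 2-fold and 95.5% at 4-fold. Only 66, 65 and 66 genes were changed at these folds, whereas 71.7% of genes were called in the real comparison. The simulation therefore cannot show recovery, or how TMM scaling behaves, when most genes change. The members, pathway lists and marker lists were chosen with earlier results of these data known. Named genes were the members, BLM, up to 2 higher and 2 lower called genes per list and A549 siRNA (not all are printed), and the 5 genes most like and 3 least like PTGS2. Promoter sequences are RefSeq's (GRCh38.p14), a later build than that of the files.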

Additional observations from a re-analysis of the deposited data

Results flagged for a closer look

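With siRNA1, PTGES2 moved in opposite directions in the 2 lines: all A549 siRNA1 libraries lay below their control (log2 fold change -0.591) and all MDA-MB-231 siRNA1 libraries above theirs (0.184), a gap of 0.775. HPGD did the reverse, with all siRNA1 libraries above the control in A549 (0.854) and all below it in MDA-MB-231 (-1.958), a gap of -2.811. The difference between the lines was not tested for either gene, because the MDA-MB-231 comparison served to choose the gene set. HPGD was at most 1.504 CPM in MDA-MB-231, so its change there rests on few reads. Over the alternatives and left-out libraries that change ran from -2.24 to -0.612, so the size of the gap depends on the setting.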

How the results depend on the processing

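In A549, the counts of members called stayed within 1.5 times of the reported ones under all alternatives and left-out libraries run, at 5 to 7 for siRNA1, 7 to 8 for siRNA2 and 6 to 7 for siRNA3. Values that changed sign were small ones that had not passed the test. For PTGER4 these were 0.0903 and 0.170 with siRNA1 on log2 TPM plus 1 and plus 0.1, -0.00395 and -0.00319 with siRNA3 under DESeq2 size factors and the Wald test (-0.0781 to 0.140 with a library left out), and 0.0853 and 0.166 between siRNA1 and siRNA3 on TPM (-0.273 to 0.00785 with a library left out). For PTGES2 they were 0.107 and 0.108 between siRNA1 and siRNA2 on TPM (-0.102 to 0.0246 with a library left out) and -0.0384 between siRNA1 and siRNA3 without a filter (-0.0440 to 0.107 with a library left out). For PTGES they were 0.133 and 0.135 between siRNA1 and siRNA3 on TPM, and -0.0240 to 0.108 with siRNA2 with a library left out. Same-numbered libraries did not deviate together (r -0.462 to 0.269), so the numbers were not used as pairs, and with the replicate block the members called numbered 6, 8 and 7 for siRNA1, siRNA2 and siRNA3. Depth limits PTGER2, PTGS1, SLCO2A1 and, in MDA-MB-231, HPGD.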

Other observations

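PACERR, a noncoding RNA, is the only gene that RefSeq lists between PTGS2 and PLA2G4A, and it was looked up after the members' values were seen. Its counts were 15, 18 and 11 in the A549 control, 13, 12 and 9 with siRNA1, 36, 30 and 25 with siRNA2 and 6, 4 and 14 with siRNA3. The siRNA2 libraries were all higher than the control, and the log2 fold change was 1.199 ± 0.34. With siRNA1, where PTGS2 rose more, it was -0.37 ± 0.39, and with siRNA3 -0.57 ± 0.41. Only the siRNA2 group had all libraries above the filter's count level. PACERR thus entered the test through the group where it is high, and no test is given. In MDA-MB-231 it had 6, 6 and 23 counts in control and 32, 55 and 33 with siRNA1 (log2 fold change 1.51 ± 0.44). PACERR lies antisense to PTGS2, and the strand setting of the counting is not given, so reads of the 2 genes may not be told apart.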
